A study of Triticum aestivum with 161 samples.

Results

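GA20ox1a and GA20ox1d are wheat genes for gibberellin 20-oxidases, and each was followed through 1 probe set of the Affymetrix wheat array, Ta.23668.1.S1_at for GA20ox1a and Ta.141.1.S1_at for GA20ox1d. They are 2 of 61288 probe sets, of which 61178 were tested after Affymetrix's own controls were set aside. Both were chosen by name with earlier results of these data in view, season differences among them, so levels by season are given below as values without a test.

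The study grew the wheat cultivars Cordiale, Hereward, Istabraq, Malacca, Marksman and Xi_19 in replicate field plots and measured RNA of developing caryopses at mid grain filling, 1 array per plot and 161 arrays in all. At Rothamsted in 2009 and 2010 every cultivar received 100, 200 or 350 kg/ha of nitrogen, written N100, N200 and N350. At Rothamsted in 2011 and at a second site, RAGT, in 2010 and 2011, the arrays cover N200. This gives 54 groups of cultivar, nitrogen, site and season, 53 with 3 plots and Malacca at N200 at Rothamsted in 2009 with 2, and the labels call the replicates biological. No group is an untreated control, and all plots received nitrogen at 1 of the 3 rates.

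Gibberellins are diterpenoid hormones of growth and germination. Gibberellin 20-oxidases carry out the successive oxidations that yield the precursors of the active hormones, gibberellin 3-oxidases complete the active forms, and gibberellin 2-oxidases inactivate them. In germinating cereal grain gibberellin induces hydrolases such as alpha-amylase in the aleurone, the living outer layer of the endosperm, and abscisic acid, which promotes embryo maturation and dormancy, opposes it. In the developing grain this enzyme step is one of the points at which the hormone's supply is set.

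Wheat is hexaploid, and the platform's annotation names another homologue of the family, GA20ox1b, and another probe set for GA20ox1d. That one carries the suffix _x_at, which marks a probe set in which some probes also match other transcripts, so signal from related copies cannot be separated there. Names came from the platform's table and RefSeq synonyms, which gave an informative name to 200 probe sets of 102 genes. A search by symbol found no other gibberellin oxidase or signalling gene among those named. The symbols KS, KO and CPS of early gibberellin synthesis were not searched for. Other genes of gibberellin synthesis or signalling were not analysed here.

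Values are log2 signals, and 1 unit is a doubling. GA20ox1a had a mean of 5.85 over the 161 arrays (SD 0.31), from 5.11 to 6.61, and its mean stood at percentile 57.8 of all probe sets. GA20ox1d had a mean of 6.26 (SD 0.34), from 5.15 to 7.07, at percentile 64.1. GA20ox1b had a mean of 2.80, at percentile 6.88, near the bottom of the scale. The second GA20ox1d probe set had a mean of 6.58. Levels of different probe sets are not comparable as amounts of RNA, so their levels are not set against each other, and a difference between probe sets on 1 array is used only to compare groups. The SD between plots of the same group was 0.17 for GA20ox1a and 0.17 for GA20ox1d, the same to 2 decimals as the median of 0.17 over all tested probe sets.

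Among the 54 groups, GA20ox1a was lowest in Istabraq at N350 at Rothamsted in 2010, with plots at 5.24, 5.41 and 5.47. It was highest in Xi_19 at N200 at Rothamsted in 2011, with plots at 6.31, 6.33 and 6.25. GA20ox1d was lowest in Marksman at N200 at Rothamsted in 2010, with plots at 5.15, 5.62 and 5.70, and highest in Malacca at N200 at RAGT in 2011, with plots at 6.71, 6.99 and 6.91. For both genes the lowest group was a 2010 group and the highest a 2011 group, and no plot of the highest group overlapped the lowest. The span of group means was 0.92 for GA20ox1a and 1.38 for GA20ox1d.

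**Figure D1:**
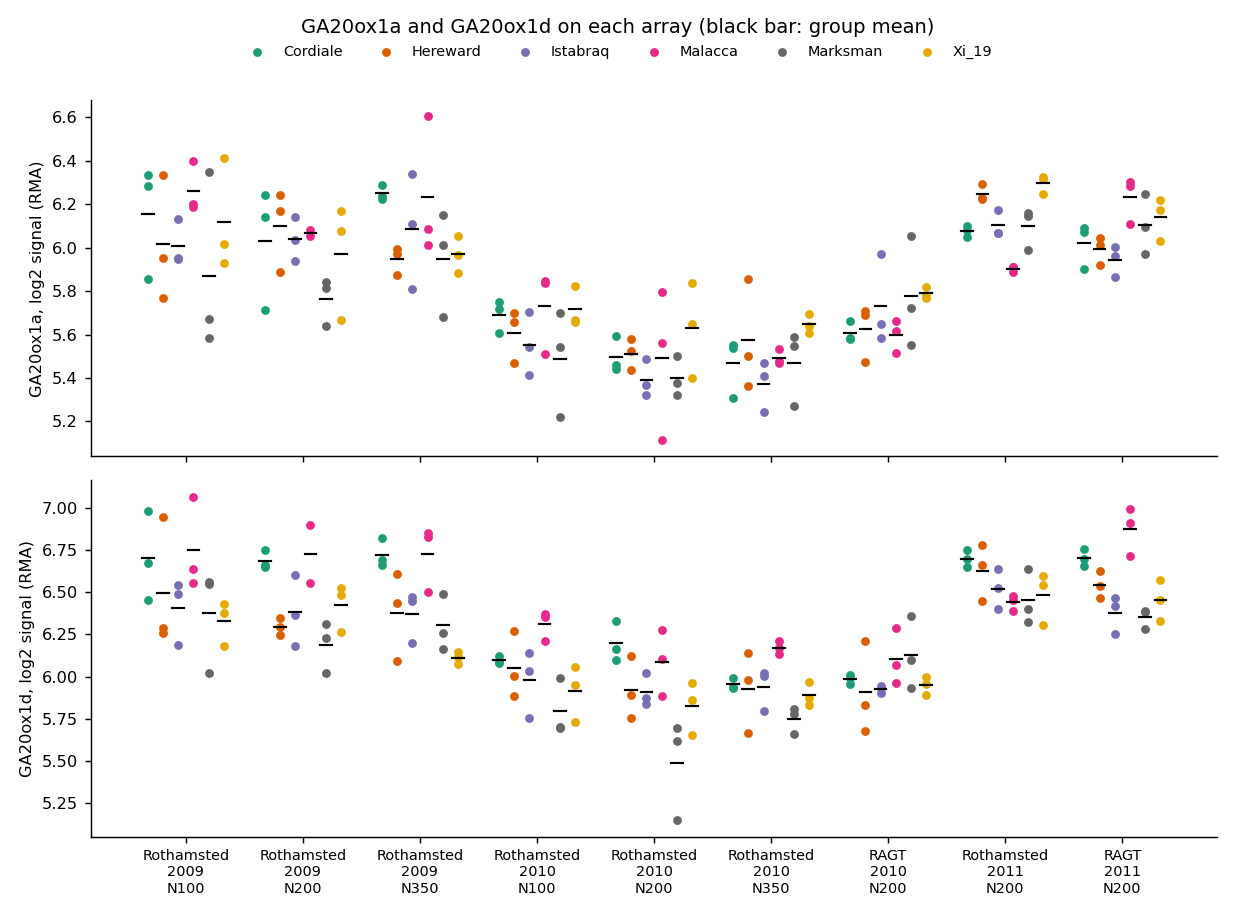
Log2 signal of GA20ox1a (upper panel) and GA20ox1d (lower panel) on each of the 161 arrays, by site, season and nitrogen rate, with 1 point per plot, colours for cultivars and a black bar for each group mean. The 2010 arrays lie lowest in both panels, with medians of 5.58 for GA20ox1a and 5.97 for GA20ox1d, against 6.05 and 6.47 in 2009 and 6.09 and 6.53 in 2011.

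Season separated the arrays most clearly for both genes. At Rothamsted at N200, GA20ox1a ranged from 5.64 to 6.24 with a median of 6.05 in 2009 (n = 17), from 5.11 to 5.84 with a median of 5.47 in 2010 (n = 18), and from 5.89 to 6.33 with a median of 6.12 in 2011 (n = 18). GA20ox1d ranged from 6.02 to 6.90 with a median of 6.36 in 2009, from 5.15 to 6.33 with a median of 5.89 in 2010, and from 6.30 to 6.78 with a median of 6.53 in 2011. The 2010 values were the low ones, and for GA20ox1a they did not overlap those of 2011. At RAGT, GA20ox1a went from a median of 5.66 in 2010 to 6.06 in 2011, and GA20ox1d from 5.96 to 6.50.

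Averaged over the 6 cultivars at N200 at Rothamsted, 2010 was lower than 2009 by 0.51 log2 units for GA20ox1a (1.42-fold) and by 0.54 for GA20ox1d (1.46-fold). All 6 cultivars were lower in 2010 for both genes, by 0.34 to 0.65 for GA20ox1a and by 0.37 to 0.70 for GA20ox1d. The same difference at N100 was -0.44 for GA20ox1a and -0.49 for GA20ox1d, and at N350 it was -0.57 and -0.50. From 2010 to 2011 the levels were higher by 0.63 at Rothamsted for each gene, and at RAGT by 0.38 for GA20ox1a and 0.55 for GA20ox1d, again in all 6 cultivars. The median over all probe sets was higher by 0.32 at Rothamsted and by 0.30 at RAGT between these seasons. The second GA20ox1d probe set was higher by 0.38 and 0.35, close to those medians, and by 0.17 and 0.10 after quantile normalization of all arrays. For 2010 minus 2009 at N200 it gave -0.41, where the median over all probe sets was -0.15. The levels of 2011 exceeded those of 2009 at Rothamsted by 0.13 for GA20ox1a and 0.09 for GA20ox1d, with 5 of 6 cultivars higher for each.

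The deposited scale itself differed between seasons, which touches every one of these values. The 1st percentile of an array lay between 2.29 and 2.36 in 2009, between 2.12 and 2.19 in 2010 and between 2.57 and 2.61 in 2011, so the ranges of the seasons did not overlap. The median over all probe sets also differed, at 5.43, 5.26 and 5.44 for the median array of each season. Relative to each array's median, the difference between 2010 and 2009 at N200 was -0.33 for GA20ox1a and -0.37 for GA20ox1d. After quantile normalization of all arrays together it was -0.37 and -0.44. On these scales 2011 exceeded 2010 at Rothamsted by 0.45 and 0.43 for GA20ox1a and by 0.45 and 0.43 for GA20ox1d. The direction between 2010 and its neighbouring seasons was thus kept, at smaller size, while the small difference between 2011 and 2009 for GA20ox1d went from 0.09 to -0.01 after quantile normalization.

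Ranks within an array do not depend on its overall scale. Whether the seasons were normalized separately was not tested. If they were, shifts of single probe sets between seasons could remain in ranks, after centring and after quantile normalization. In the N200 plots at Rothamsted, GA20ox1a stood on average at percentile 59.2 of its array in 2009, 53.6 in 2010 and 60.3 in 2011. GA20ox1d stood at percentiles 65.8, 59.8 and 65.9. Both genes therefore took a lower rank among the probe sets of the 2010 arrays. Set beside the 1000 probe sets of nearest mean level, whose median difference between 2010 and 2009 at N200 was -0.16 for GA20ox1a and -0.12 for GA20ox1d, the middle 90% of those probe sets ran from -0.55 to 0.33 and from -0.51 to 0.35. At N200 the value of GA20ox1a lay inside this range and that of GA20ox1d just below it. At N350 both lay below the 5th percentile of such probe sets (-0.57 against -0.52 for GA20ox1a, -0.50 against -0.48 for GA20ox1d), and at N100 GA20ox1a lay inside (-0.44 against -0.52) and GA20ox1d below (-0.49 against -0.47). From 2010 to 2011 both genes lay inside the corresponding range at both sites.

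**Figure D2:**
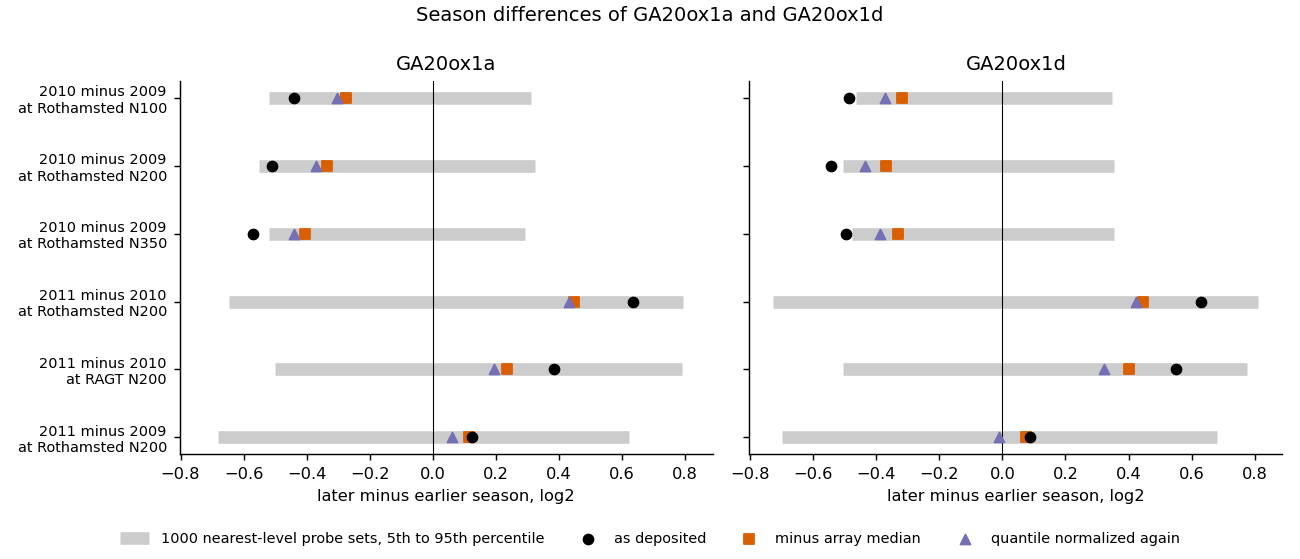
Difference between seasons (later minus earlier, log2, mean over 6 cultivars) for GA20ox1a (left) and GA20ox1d (right), as deposited (circles), relative to each array's median (squares) and after quantile normalization of all arrays (triangles), with a grey bar from the 5th to the 95th percentile of the 1000 probe sets of nearest level. At N200 the deposited differences of 2010 from 2009 are -0.51 and -0.54, and those of 2011 from 2010 at Rothamsted are 0.63 for both genes.

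Markers of the grain's tissues also differed between the seasons. Storage protein and starch genes of the starchy endosperm, 19 probe sets of which 18 reached a mean of 6, gave a mean level between 12.14 and 12.98 on every array. Embryo maturation genes (EM, EMH2, Rab15, LEA1 and the lectin WGA2, 10 probe sets) varied most, from 5.56 to 11.90 per array. Their mean at Rothamsted at N200 was 8.67 in 2009, 10.20 in 2010 and 6.21 in 2011, highest in the season when GA20ox1a and GA20ox1d were lowest. Genes of dividing cells (histones and tubulins, 28 probe sets) averaged 9.92, 9.79 and 10.49 in the N200 plots at Rothamsted in 2009, 2010 and 2011. The aleurone list (5 probe sets, of which the 3 of BMY1 and PER1 also stand on the list of gibberellin and abscisic acid genes) averaged 10.91, 10.77 and 11.49. It is not particular to the aleurone, since BMY1 is an endosperm beta-amylase and PER1 is known from barley in aleurone and embryo. Genes of the green pericarp (32 probe sets, 9 of which reached a mean of 6) averaged 5.36, 5.22 and 5.68. These list levels are on the deposited scale, where the median difference of all probe sets between 2010 and 2009 in these plots was -0.15. The lower 2010 values of the dividing, aleurone and pericarp lists are close to that shift and cannot be told apart from it. The part of tissue or stage in the season differences was not tested, and fewer cells of a type cannot be told apart from less RNA per cell in whole caryopses.

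Nitrogen supply was compared in 2009 and 2010 at Rothamsted, over 12 combinations of cultivar and season, with limma and Benjamini-Hochberg adjustment over all tested probe sets. Differences were small for both genes. In the 2009 plots GA20ox1a had a mean of 6.07 ± 0.26 (SD, n = 18) at N100, 5.99 ± 0.20 (n = 17) at N200 and 6.07 ± 0.22 (n = 18) at N350. In 2010 the means were 5.63 ± 0.16, 5.49 ± 0.17 and 5.50 ± 0.15, each over 18 plots. The plots of the 3 rates overlapped in both seasons.

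GA20ox1d had means of 6.51 ± 0.28, 6.43 ± 0.23 and 6.44 ± 0.27 at N100, N200 and N350 in 2009, and of 6.02 ± 0.21, 5.90 ± 0.28 and 5.94 ± 0.16 in 2010. In both seasons N100 was the highest of the 3 means for this gene, again with overlapping plots. At N350, GA20ox1a was lower than at N100 by 0.06 (SE 0.04, limma adjusted p = 0.256, lower in 9 of 12 combinations) and GA20ox1d by 0.08 (SE 0.04, adjusted p = 0.129, lower in 11 of 12). The second GA20ox1d probe set did not show this lean, with 6 combinations higher and 6 lower. Neither gene was called, while 23.0% of all probe sets were.

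At N200 against N100 GA20ox1a fell by 0.11 (SE 0.04, limma adjusted p = 0.0491, lower in 10 of 12 combinations), and GA20ox1d differed by -0.09 (SE 0.04, adjusted p = 0.110, lower in 10 of 12), while its second probe set again had 6 higher and 6 lower. In this comparison 14.9% of all probe sets were called, so 1 of 2 here rests on a value next to the threshold. The call of GA20ox1a was lost in 15 of 19 other settings, among them each of the 3 that left out a replicate number (-0.07, -0.14 and -0.12, adjusted p from 0.101 to 0.330). Without the 5 arrays of 2009 that stood apart from their groups it was -0.08 (adjusted p = 0.131). The embryo list averaged 8.78 at N100, 9.46 at N200 and 8.95 at N350 in these plots, and its part in the difference was not tested. Between N350 and N200 neither gene was called (0.05 for GA20ox1a, adjusted p = 0.903, and 0.01 for GA20ox1d, adjusted p = 0.983), and 0.0376% of all probe sets were.

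The response to nitrogen was also compared between seasons and between cultivars. The difference of N350 from N100 changed from 2009 to 2010 by -0.13 for GA20ox1a (95% confidence interval -0.29 to 0.03, adjusted p = 0.581) and by -0.01 for GA20ox1d (-0.17 to 0.14, adjusted p = 0.981), and neither was called beside 0.690% of all probe sets. Between cultivars the response of GA20ox1a ran over a range of 0.16 (limma F test, adjusted p = 0.992) and that of GA20ox1d over 0.08 (adjusted p = 0.998), with 0.0212% of all probe sets called.

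**Figure D3:**
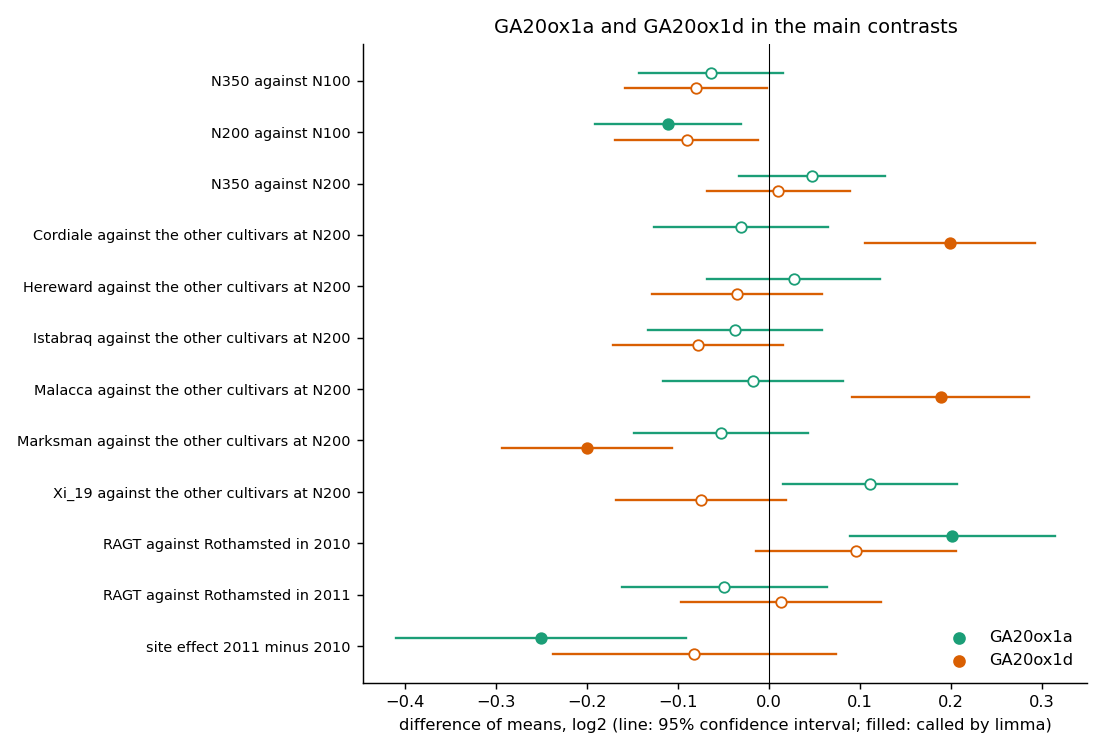
Difference in log2 signal of GA20ox1a (green) and GA20ox1d (orange) in the main contrasts, with the 95% confidence interval as a line and filled points where limma's adjusted p was under 0.05. Filled points are GA20ox1a for N200 against N100 (-0.11), for RAGT against Rothamsted in 2010 (0.20) and for the change of that site difference (-0.25), and GA20ox1d for Cordiale (0.20), Malacca (0.19) and Marksman (-0.20).

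Cultivars differed in GA20ox1d and were not called different in GA20ox1a. Over the 5 environments at N200, GA20ox1d averaged 6.45 in Cordiale, 6.45 in Malacca, 6.26 in Hereward, 6.23 in Xi_19, 6.22 in Istabraq and 6.12 in Marksman. The range of 0.33 passed the limma F test (adjusted p = 1.27e-06), in a comparison that called 46.5% of all probe sets, and it passed under each of the 17 other settings run. Against the mean of the other cultivars Cordiale was higher by 0.20 (SE 0.05, adjusted p = 0.000763), and 16.4% of all probe sets were called for this cultivar. Malacca was higher by 0.19 (SE 0.05, adjusted p = 0.00274, background 13.2%) and Marksman was lower, at -0.20 (SE 0.05, adjusted p = 0.000765, background 14.4%). Hereward, Istabraq and Xi_19 differed from the rest by -0.04, -0.08 and -0.07 and were not called, beside 17.9%, 16.1% and 27.1% of all probe sets.

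The order was much the same in the 9 sets of site, season and nitrogen rate. Cordiale and Malacca each held 1 of the first 2 places for GA20ox1d in 8 of 9 sets, and Marksman 1 of the last 2 places in 8 of 9. Exceptions were RAGT in 2010, where Marksman came first with 6.36, 6.10 and 5.93, and Rothamsted in 2011, where Malacca came last with 6.47, 6.45 and 6.39. Of the 15 pairs of cultivars 8 were called, with differences from 0.19 to 0.33, and the largest difference not called was 0.14. The share of all probe sets called was 16.9%, 13.4%, 9.35%, 13.2% and 25.4% for Cordiale against Hereward, Istabraq, Malacca, Marksman and Xi_19. It was 12.1%, 14.2%, 15.5% and 23.9% for Hereward against Istabraq, Malacca, Marksman and Xi_19, and 12.3%, 17.4% and 23.8% for Istabraq against Malacca, Marksman and Xi_19. For Malacca against Marksman and Xi_19 it was 11.5% and 21.3%, and for Marksman against Xi_19 14.7%. The called pairs set Cordiale and Malacca against the other 4, while Cordiale and Malacca were not called different from each other, nor were any 2 of those other 4.

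Some of these contrasts leaned on single environments or replicate numbers. Marksman's difference was -0.12 without Rothamsted 2010 (adjusted p = 0.127), the environment with its plot at 5.15. Malacca's was 0.14 without RAGT 2011 (adjusted p = 0.114) and 0.16 without replicate 3 (adjusted p = 0.0769), and Cordiale's was 0.17 without replicate 2 (adjusted p = 0.0654).

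The second GA20ox1d probe set gave a like picture at smaller size, though it is not independent, since both were read from the same arrays and carry 1 gene's name. Its range among cultivars was 0.26 (adjusted p = 0.000156), with Cordiale at 0.18 (adjusted p = 0.00136) and Marksman at -0.13 (adjusted p = 0.0243) against the others. Malacca was at 0.11 and was not called (adjusted p = 0.0988). Marksman's call was lost in 6 of the other settings, with values from -0.09 to -0.16.

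GA20ox1a averaged 5.97 in Xi_19, 5.90 in Hereward, 5.86 in Malacca, 5.85 in Cordiale, 5.84 in Istabraq and 5.83 in Marksman. Its range of 0.14 did not pass (adjusted p = 0.342), and limma called 0 of 15 pairs, with 2 at an unadjusted p under 0.05. Xi_19 had the largest difference from the others, 0.11 (SE 0.05, adjusted p = 0.0742), held 1 of the first 2 places in 6 of 9 sets, and was called under 4 of 16 other settings. The difference of GA20ox1d and GA20ox1a on each array, added to the fit after their values were seen, was itself tested among cultivars. It ranged over 0.35 (adjusted p = 1.17e-06) and passed under each of the 16 other settings run. This concerns the difference between the probe sets, and no order of the cultivars was established for GA20ox1a. Relative to GA20ox1a, GA20ox1d was higher in Cordiale by 0.23 (adjusted p = 0.000396) and in Malacca by 0.21 (adjusted p = 0.00312), and lower in Xi_19 (-0.19, adjusted p = 0.00369) and Marksman (-0.15, adjusted p = 0.0417, called under 8 of 16 other settings).

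**Figure D4:**
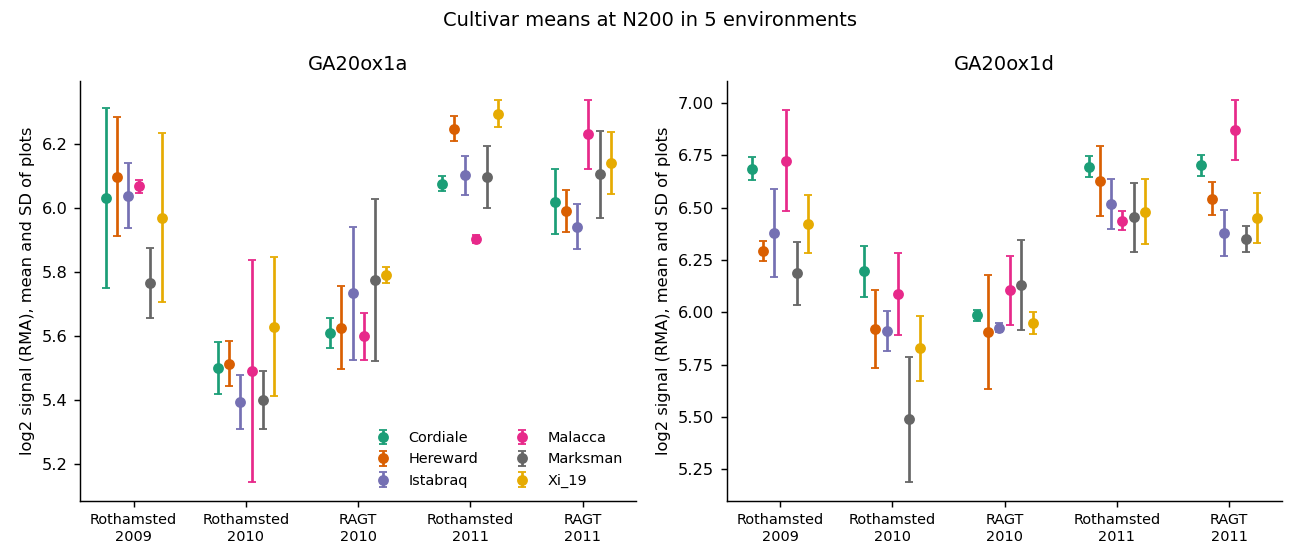
Mean log2 signal of GA20ox1a (left) and GA20ox1d (right) in each cultivar at N200 in the 5 environments, with bars for the SD of 3 plots (2 for Malacca at Rothamsted in 2009). For GA20ox1d, Cordiale and Malacca lie above the other cultivars in most environments, with means of 6.45 each, and Marksman at Rothamsted in 2010 lies lowest, at 5.49.

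Whether cultivars kept their differences across the environments was tested with the interaction. For GA20ox1d the deviations ran over 0.55 (limma F test, adjusted p = 0.0887) and for GA20ox1a over 0.38 (adjusted p = 0.589), and neither was called beside 6.94% of all probe sets. The test for GA20ox1d passed under 6 of 17 other settings. Of the variance of GA20ox1d over the 89 arrays at N200, 64.9% lay between environments, 12.04% between cultivars and 10.9% in their interaction. For GA20ox1a the shares were 71.5%, 2.62% and 9.47%. The medians over all probe sets were 53.9%, 6.06% and 10.4%, so both genes were above the median in the share between environments, and GA20ox1d alone of the 2 was above it in the share between cultivars. The second GA20ox1d probe set had 52.5% between environments, below that median, and GA20ox1b, near the bottom of the scale, had 70.2%. The environments span seasons whose deposited scales differ, so the share between environments includes that difference of scale.

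Embryo markers differed between cultivars as well, with means at N200 of 8.69 in Hereward, 8.4985 in Marksman, 7.72 in Malacca, 7.54 in Xi_19, 7.45 in Istabraq and 7.37 in Cordiale. Endosperm markers averaged from 12.43 in Malacca to 12.84 in Marksman. GA20ox1d was thus low in 1 of the 2 cultivars with the highest embryo markers, and near its mean in the other. Among the cultivars with the lowest embryo markers, GA20ox1d was high in Cordiale, at 6.45, but not in Istabraq (6.22) or Xi_19 (6.23). The part of these markers in the cultivar differences was not tested.

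The sites were compared at N200 within 2010 and within 2011. The error in these tests is the spread between plots of the same group. No site was repeated within a season, so the p-values do not measure the spread between fields. In 2010 GA20ox1a ran from 5.48 to 6.05 with a median of 5.66 at RAGT and from 5.11 to 5.84 with a median of 5.47 at Rothamsted, so the plots overlapped while all 6 cultivar means were higher at RAGT. Averaged over cultivars it rose by 0.20 at RAGT (SE 0.06, limma adjusted p = 0.00377), with 0.11 in Malacca as the smallest difference and 0.38 in Marksman as the largest. In this comparison 30.5% of all probe sets were called. Leaving out replicate 1 gave 0.16 (adjusted p = 0.0771) and leaving out replicate 2 gave 0.18 (adjusted p = 0.0766), neither of them called.

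GA20ox1d differed between the sites in 2010 by 0.10 (SE 0.06, adjusted p = 0.187) and was not called. Its cultivars were divided, 4 higher and 2 lower at RAGT. Marksman stood out with 6.36, 6.10 and 5.93 at RAGT against 5.15, 5.62 and 5.70 at Rothamsted, groups that do not overlap. This contrast, singled out after its values were seen, was 0.64 (SE 0.14, adjusted p = 0.00191), where 2.58% of all probe sets were called, and it was 0.36 without replicate 1 (adjusted p = 0.305). Without Marksman the site difference of GA20ox1d was -0.01, and without replicate 1 it was -0.02.

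In 2011 neither gene was called different between the sites. GA20ox1a was at 6.07 ± 0.13 (SD, n = 18) at RAGT and 6.12 ± 0.14 (n = 18) at Rothamsted, a difference of -0.05 (95% confidence interval -0.16 to 0.06, adjusted p = 0.682). GA20ox1d was at 6.55 ± 0.21 and 6.54 ± 0.14, a difference of 0.01 (-0.10 to 0.12, adjusted p = 0.926). In this comparison 5.82% of all probe sets were called. Malacca, again singled out after the fact, had GA20ox1d at 6.71, 6.99 and 6.91 at RAGT and at 6.47, 6.45 and 6.39 at Rothamsted, a difference of 0.43 (SE 0.14) that did not pass (adjusted p = 0.0829), beside 1.24% of all probe sets.

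The change of the site difference from 2010 to 2011 was -0.25 for GA20ox1a (SE 0.08, limma adjusted p = 0.0125), and 29.4% of all probe sets were called in this interaction. For GA20ox1d it was -0.08 (SE 0.08, adjusted p = 0.447). The difference between the genes in this interaction was 0.17 and was not called (adjusted p = 0.130), so the call of 1 gene does not show that the 2 differed. For GA20ox1a this was not called under 4 of 17 other settings, among them when replicate 1 (-0.19, adjusted p = 0.151), replicate 2 (-0.23, adjusted p = 0.116) or Istabraq (-0.20, adjusted p = 0.103) was left out. The remaining setting was the replicate block, whose site contrasts do not average over the replicates.

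Embryo markers moved the other way in 2010, with means of 8.06 at RAGT and 10.20 at Rothamsted, and were close in 2011, at 6.30 and 6.21. On the list of gibberellin and abscisic acid genes, 17 probe sets of 10 genes with the 2 here included, 2 rose and 10 fell at RAGT in 2010, beside 15.9% of all probe sets higher and 14.6% lower. The 2 that rose were GA20ox1a and, named after its value was seen, BMY1, an endosperm beta-amylase (1.33, adjusted p = 0.00099). The largest falls were those of genes that abscisic acid induces in the embryo, EM (-3.23 and -2.85), EMH2 (-3.04, -2.97 and -2.57) and Rab15 (-1.73). Nearly all probe sets of the embryo list also stand on this list, so its falls and those of the embryo markers are largely the same values. The median of the list was -0.40, against 0.02 for all probe sets. In 2011 limma called 0 of the 17, with 1 at an unadjusted p under 0.05, beside 5.82% of all probe sets called. The part of embryo stage in the site difference of GA20ox1a was not tested.

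Elsewhere on the same list, N200 against N100 called 3 probe sets higher, those of EM (0.80) and EMH2 (0.89 and 0.76), and 1 lower, GA20ox1a, of 17, beside 6.58% of all probe sets higher and 8.32% lower. The list's median was 0.13 and that of all probe sets 0.00. For N350 against N100 limma called 0 of 17, with 1 at an unadjusted p under 0.05, beside 23.0% of all probe sets called.

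Each cultivar was also set against the others on this list. For Cordiale 3 of 17 were higher, both GA20ox1d probe sets and BMY1 (0.86), and 2 lower, LEA1 (-0.35), a late embryogenesis abundant protein, and 1 of the 2 probe sets of PER1 (-0.53), known from barley as an antioxidant enzyme of aleurone and embryo. The shares of all probe sets for Cordiale were 8.56% higher and 7.85% lower. For Hereward 9 were higher and 1 lower, beside 9.61% and 8.25% of all probe sets, and those with the largest differences were EMH2 (1.35 and 1.33), EM (1.28), Rab15 (0.98 and 0.95) and, lower, BMY1 (-0.90). For Marksman 6 were higher, EM (1.31 and 1.06), EMH2 (1.22, 1.17 and 1.04) and PER1 (0.18), and 2 lower, both of GA20ox1d, beside 6.84% and 7.54% of all probe sets.

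The other cultivars had fewer calls on the list. For Malacca 2 were called, both higher, PER1 (0.22) and GA20ox1d, beside 6.59% of all probe sets higher and 6.64% lower. For Istabraq 1 was called, PER1 (0.16), higher, beside 8.64% and 7.41%. For Xi_19 3 were called, each lower, Rab15 (-0.72 and -0.71) and PER1 (-0.36), beside 14.0% and 13.1%. Genes of the embryo list were thus among the calls in Cordiale (LEA1), Hereward, Marksman and Xi_19, and GA20ox1d among those in Cordiale, Malacca and Marksman. GA20ox1b, whose level lay near the bottom of the scale, was not called among cultivars, for nitrogen or between sites.

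Plots of the same group were compared through the deviation of each array from its group's mean. GA20ox1a and GA20ox1d deviated together only loosely, with r = 0.40 over the 161 arrays and rho = 0.33, and with the same sign on 87 of the 161. Within seasons r was 0.46 in 2009, 0.38 in 2010 and 0.03 in 2011, and it was 0.33 without the 5 arrays that stood apart. The 2 GA20ox1d probe sets were related no more closely, at r = 0.41. Arrays of 1 group share their mean, and all share platform and processing, so these values describe the arrays.

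Deviations of the embryo list ran opposite to GA20ox1a (r = -0.50) and GA20ox1d (r = -0.38), mostly in 2009 (-0.64 and -0.58), less in 2010 (-0.27 and -0.09), and not in 2011 (0.05 and 0.18). Genes of dividing cells went with both (0.51 and 0.50 over all arrays), with 0.71 and 0.61 in 2009, 0.30 and 0.45 in 2010 and -0.21 and -0.02 in 2011. The aleurone list, which also holds the endosperm gene BMY1, went with both over all arrays (0.39 and 0.36), with 0.65 and 0.63 in 2009, -0.21 and -0.22 in 2010 and 0.02 and 0.32 in 2011. Endosperm genes (0.14 and 0.15) and green pericarp genes (0.06 and -0.04) were only weakly related to either. In Hereward at N100 in 2009, GA20ox1d stood at 6.94, 6.29 and 6.26, and the plot at 6.94 was the array farthest from its group over all probe sets.

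**Figure D5:**
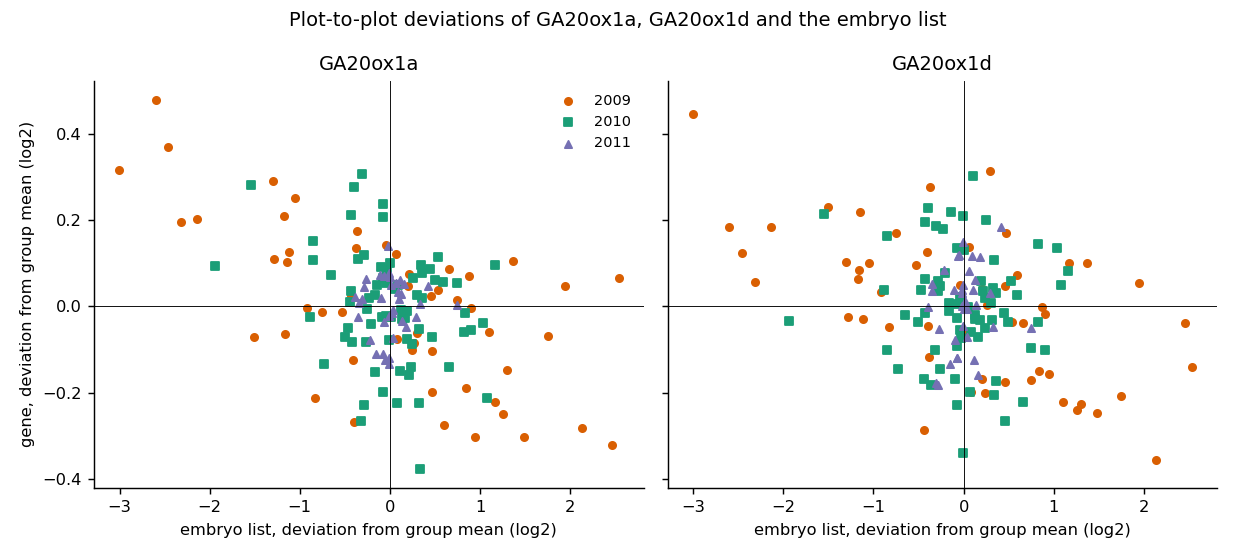
Deviation of GA20ox1a (left) and GA20ox1d (right) from the mean of its group on each array, against the deviation of the embryo list on the same array, both in log2 units, with seasons by colour and symbol. The widest spread belongs to 2009, where r was -0.64 for GA20ox1a and -0.58 for GA20ox1d, and in 2011 r was 0.05 and 0.18.

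Over the 54 group means, each centred on the mean of its season, GA20ox1a and GA20ox1d had r = 0.50, against 0.87 before centring. Among the 150 named probe sets whose mean reached 6, the patterns most like GA20ox1a were Glc1 (r = 0.63), wci (0.62), TSA (0.60), Tubb4, a beta-tubulin (0.57), and Eif4B, a translation initiation factor (0.57). The most opposed were the embryo genes Rab15 (-0.60) and EMH2 (-0.60). The patterns most like GA20ox1d were its own second probe set (0.85), GSTZ1, a glutathione transferase (0.72), TBP1, the TATA-binding protein (0.69), tubb3, a beta-tubulin (0.47), and DMAS1, an enzyme of phytosiderophore synthesis (0.47). The most opposed were the alpha-gliadins Gli-B2-11 (-0.57) and Gli-D2-1 (-0.54). These correlations are descriptions of groups measured on the same arrays.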

How the data were processed

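RNA of whole caryopses was measured on 161 Affymetrix wheat arrays. The deposited values are log2 signals made by the authors with RMA, per the submitters' processing notes. Software and version: not given in the sources used here. These log2 values were used without further normalization. The 61178 probe sets other than Affymetrix controls were fitted with limma 3.58.1 (R 4.3.3), with a mean for each of the 54 groups and 107 residual degrees of freedom, without a block. P-values were adjusted by Benjamini-Hochberg over all of these probe sets, and called means an adjusted p under 0.05. The F tests cover all cultivars together. The number of arrays limits the precision. Season differences were not tested, because the rule for the members speaks of them and the seasons differ in scale.

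Names came from the platform's older annotation, which gave 1273 probe sets 1 gene each (771 genes, 770 matched to RefSeq). The members and gene lists were chosen with earlier results of these data known. Besides both genes, the text names other probe sets of the same clusters and family, up to 6 called probe sets a contrast of the hormone list by size (besides those of the family; an exception is marked where it stands), and the 5 most alike and 2 most opposed named probe sets. The embryo list's pattern for wheat germ agglutinin also matched a synonym of GA20ox1d. Its 2 probe sets were removed from that list after the data were seen, leaving 10, of which 9 are also on the hormone list. The fit was tested on simulated data, where for N350 against N100 it recovered 75% of 100 probe sets changed by 0.2 and 100% of those changed by 0.5, of 61178. Alternatives were a replicate block, only the arrays compared, a level filter (which leaves out GA20ox1a, whose mean is under 6), quantile normalization, centring, an intensity trend with robust estimation, array weights, an RNA quality covariate, and omissions of replicates, cultivars, environments or seasons. Further ones were added after seeing the data: leaving out 5 arrays whose root mean square deviation from the group mean exceeded 0.3, the difference between the genes as a row of the fit, and the site contrasts within Marksman and Malacca.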

Additional observations from a re-analysis of the deposited data

Results flagged for a closer look

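The difference between RAGT and Rothamsted in GA20ox1a at N200 was itself different in 2010 and 2011, by -0.25 on the log2 scale (2011 minus 2010, limma adjusted p = 0.0125), which is why it is listed here. It was not called under 4 of 17 other settings, among them the replicate block, whose site contrasts do not average over the replicates. GA20ox1a was higher at RAGT in 6 of 6 cultivars in 2010 and in 2 of 6 in 2011.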

How the results depend on the processing

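Of 548 recomputed values of the main comparisons of GA20ox1a and GA20ox1d, 484 kept direction and side of the threshold, 26 lost a call, 12 gained one and 26 changed sign, all of these uncalled before and after. The causes were not tested beyond what each omission shows. The number of arrays, the distance of the season scales and the shared probes limit what the values can show. Replicate numbers were not taken to pair the plots, because the labels do not say so and not every same-numbered pair of a site and season correlated above 0.1 (lowest r -0.73). As a hint from the data, not the design, the median r was 0.12 for the same number and -0.06 for different ones, and 100 of 161 arrays correlated best with their own number, though not all. With replicate number as a block, the interaction of cultivar and environment for GA20ox1d was called, at 0.55 (limma adjusted p = 0.0398). The site contrasts of that fit set the level of 1 replicate number at a site and season against that of 1 at the other site. They do not average over the replicates and so do not bear on the site differences. They were 0.21 for GA20ox1a in 2010 (limma adjusted p = 0.0515) and -0.24 for its change to 2011 (limma adjusted p = 0.214).

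Calls of GA20ox1a were lost as follows. The site difference of 2010 was 0.16 to 0.27 when single replicate numbers were left out, and its change to 2011 was -0.33 to -0.19, and -0.20 without Istabraq. For N200 against N100 the value was -0.11 with only the arrays compared, -0.11 after quantile normalization, -0.11 with trend and robust estimation, -0.064 with array weights, -0.073 to -0.14 without single replicate numbers, -0.10 without Cordiale, -0.12 without Istabraq, -0.089 without Malacca, -0.11 without Marksman, -0.11 without Xi_19, -0.077 in 2009 alone, -0.14 in 2010 alone and -0.082 without the arrays that stood apart.

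For GA20ox1d, calls were lost for Malacca without RAGT 2011 (0.14) and for Marksman without Rothamsted 2010 (-0.12), and, without single replicate numbers, Cordiale ranged from 0.17 to 0.23 and Malacca from 0.16 to 0.20. Calls were gained by its interaction of cultivar and environment with only the arrays compared (0.55), the level filter (0.55), array weights (0.52), without Rothamsted 2009 (0.55) and without the arrays that stood apart (0.55). For GA20ox1a they were gained by Xi_19 with only the arrays compared (0.11), array weights (0.11), without Rothamsted 2009 (0.15) and without the arrays that stood apart (0.11), and with array weights by the cultivars (0.16) and by the interaction (0.44).

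Sign changes among uncalled values of GA20ox1d were these. N350 against N200 was -0.0028 with array weights, -0.026 without Marksman, -0.014 in 2009 alone and -0.028 to 0.038 without single replicate numbers. The change of the nitrogen effect between seasons was 0.015 with array weights, 0.0012 with the RNA quality covariate, 0.019 without Cordiale, 0.0096 without Malacca and -0.079 to 0.042 without single replicate numbers, of which 2 were above zero (0.042 and 0.0041). The site difference of 2011 was -0.0025 after quantile normalization, -0.071 without Malacca and -0.011 to 0.048 without single replicate numbers. That of 2010 was -0.014 without Marksman and -0.017 to 0.16, and its change to 2011 was 0.051 without Marksman and -0.17 to 0.019. Hereward was 0.0022 without Rothamsted 2009.

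Among uncalled values of GA20ox1a, N350 against N100 was 0.00040 in 2009 alone. Malacca was 0.023 with array weights, 0.0053 without RAGT 2010, 0.043 without Rothamsted 2011 and -0.049 to 0.014 without single replicate numbers. Cordiale was -0.050 to 0.00099 without single replicate numbers, Marksman 0.0028 without Rothamsted 2009 and Hereward -0.0044 without Rothamsted 2011. GA20ox1b was 0.0086 between sites in 2011 with the block, -0.033 in 2010 without replicate 1, and for N350 against N100 -0.0011 without Malacca and -0.026 in 2009 alone. Hereward in the second GA20ox1d probe set was -0.011 after quantile normalization, -0.0025 with the covariate, -7.5e-05 without replicate 1, -0.030 to 0.039 over the omissions of single replicate numbers, -0.022 without Rothamsted 2010 and -0.019 without Rothamsted 2011.

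Season differences moved by more than the SD between plots of the arrays each compares, from 0.13 to 0.22, in 10 recomputed values. For 2010 minus 2009 those of GA20ox1d were -0.37 at N200 and -0.33 at N350 after centring. For 2011 minus 2010 at Rothamsted they were, after centring and after quantile normalization, 0.45 and 0.43 for GA20ox1a and 0.45 and 0.43 for GA20ox1d, and at RAGT 0.23 and 0.20 for GA20ox1a and 0.40 and 0.32 for GA20ox1d.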
